A study of Mus musculus with 17 samples.

Results

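The question addressed here is whether *Usb1* knockout cells answer the first day of retinoic acid (RA) as wild-type cells do. For each gene, the change from day 0 to day 1 in *Usb1* knockout cells was set against the change in wild-type cells, and the difference between these changes was tested as an interaction. Of the 17 libraries of the study, the 11 of day 0 and day 1 enter this comparison. It covered 11120 of the 22046 protein-coding genes, those with at least 5 TPM in at least 2 of the 11 libraries. TPM gives a gene's share of all transcripts in a library after division by gene length.

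R1/E mouse embryonic stem cells, an established line, were profiled by bulk RNA sequencing in the self-renewing state (day 0) and after 1 and 3 days with RA, which starts their differentiation. At day 0 there were 2 wild-type and 3 *Usb1* knockout libraries, at day 1 there were 3 of each genotype, and the 6 libraries of day 3 serve below as data outside the comparison. Both genotypes received the same treatment, and the libraries are biological replicates. No untreated library of day 1 was among the samples, so RA cannot be told apart from time in culture. Below, a response to RA is the change from day 0, and genes that RA moved or lowered are meant in that sense. The *Usb1* knockout cells were a single clonal line made with guide RNAs, so clone and knockout cannot be told apart. Y-linked genes, for example, were absent in the knockout line, with a median log2 difference from wild-type of −6.01 at day 0 over the 3 tested, and −5.74 at day 1.

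RA enters the nucleus and binds heterodimers of RA receptors (RARs) and retinoid X receptors (RXRs), which sit on DNA as repeats of a short half-site and switch from repression to activation. Among the earliest targets are genes that act on RA itself, such as the *Cyp26* enzymes that degrade it, the receptor gene *Rarb*, and the Hox genes, which RA opens in order along their clusters. In embryonic stem cells the same signal also shuts off the network of naive pluripotency, which leukemia inhibitory factor (LIF) maintains in culture. USB1 is an exonuclease that trims the oligo(U) tail of U6 snRNA, a core RNA of the spliceosome, and leaves a 2′,3′-cyclic phosphate at its end.

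*Usb1* mRNA was at 37.1 to 56.9 TPM in the wild-type libraries of day 0 and day 1 and at 15.2 to 21.4 TPM in the *Usb1* knockout libraries. Its own response did not differ detectably between the genotypes, with a difference on the log2 scale of −0.13 (SE 0.14, adjusted p = 0.587, limma). Between 15404379 and 16686771 reads fell on genes in each of the 11 libraries. Wild-type replicate 1 at day 0 stood apart, with 239 genes of a single read against 1352 to 2437 in the others. Summed over 9 embryonic stem cell markers, levels were 11220 to 11340 TPM in wild-type and 10410 to 11350 TPM in *Usb1* knockout libraries at day 0, and 9164 to 9671 against 11310 to 12230 TPM at day 1. Most of the sum at day 1 is *Dppa5a*, at 5479 to 6022 TPM in wild-type against 6762 to 7762 TPM in *Usb1* knockout libraries. *Sox2* went the other way, at 699 to 752 against 643 to 646 TPM, so the sum does not speak for each marker. The 15 feeder fibroblast markers summed to 30.91 to 62.36 TPM, and 8 or 9 of them had a mean under 1 TPM in each group. *Dcn*, *Lum* and *Postn* were at 0, while *Col1a1* was at 1.08 to 5.93 TPM and *Thy1* at 1.54 to 7.16 TPM. The 23 primitive endoderm markers summed to 1910 to 2229 TPM in wild-type and 1508 to 1783 TPM in *Usb1* knockout libraries at day 1, and markers of 2-cell-like cells to 9.705 to 12.78 and 1.702 to 3.574 TPM. The part of these differences in the results was not tested, and in bulk RNA fewer cells of a type cannot be told apart from less RNA per cell.

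The early response differed between the genotypes in 127 genes, 1.14% of those tested. A gene was called when its adjusted p, from limma with Benjamini-Hochberg adjustment over all genes tested, was under 0.05 and the difference was at least 2-fold. Differences are log2 values of TPM plus a pseudocount of 1, which understates how much a low gene changes. In 93 genes (0.836%) the response was lower in *Usb1* knockout cells and in 34 (0.306%) it was higher. Most of the 93 rose less. In 45 of them expression went up at least 2-fold in both genotypes but further in wild-type cells, and in 38 it went up that far in wild-type cells alone. Most of the 34 fell further in wild-type cells. Of these, 12 fell at least 2-fold in both genotypes and 13 fell that far in wild-type cells alone. By the mean of both responses, described below, 16 of the 34 were called as falling (background 3.09%), 4 as rising (background 7.33%) and 14 as neither. Another 3 of the 34 went up in both genotypes and further in *Usb1* knockout cells. The balance of direction depended on scaling. After quantile normalization 66 of 123 called genes were higher and 57 lower, and each of the 127 genes kept its sign. The number depended on wild-type replicate 2 at day 0, without which replicate 1 is the only wild-type library of that day and 636 genes were called. Without replicate 1 instead, 136 were called, and 99 of the 127 (0.89% of those tested) had an adjusted p under 0.05 without either of them, 30 higher (0.27%) and 69 lower (0.621%). With a single wild-type library at day 0, these fits take its spread from the other groups.

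**Figure D1:**
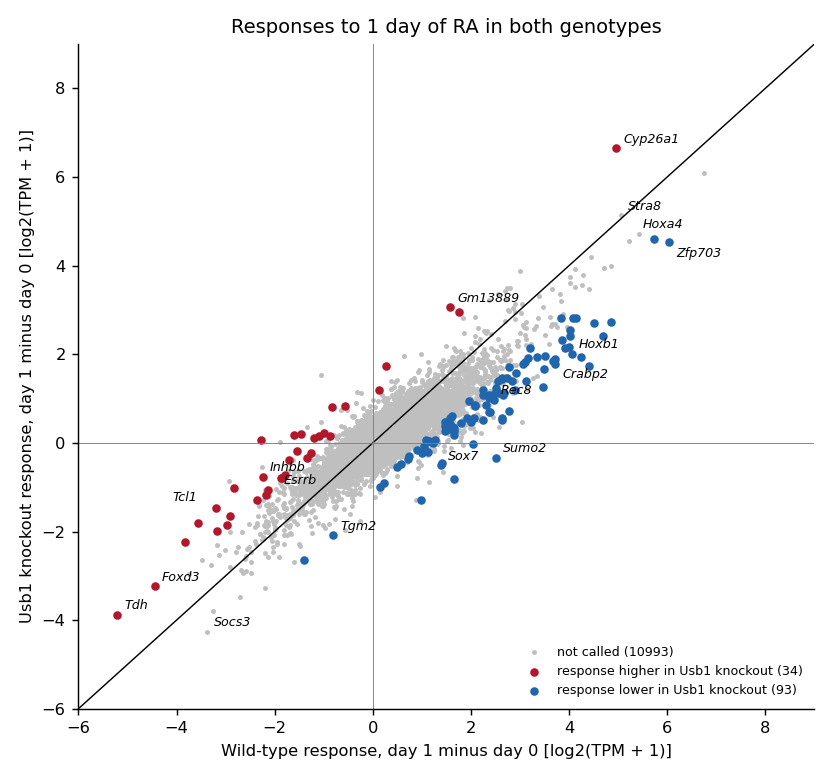
Response of each of 11120 genes to 1 day of RA, as the mean at day 1 minus the mean at day 0 on the log2(TPM + 1) scale, in wild-type cells (x axis) and *Usb1* knockout cells (y axis). The diagonal marks equal responses. The 93 genes with a lower response in *Usb1* knockout cells (blue) lie below it, mostly among genes that rose in wild-type cells. The 34 with a higher one (red) lie above it, mostly among genes that fell in wild-type cells.

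The pattern was also looked for over all genes that RA moved, whatever their call for the interaction. RA-responsive genes were chosen by the mean of both responses, weighted by their precision so that its error is uncorrelated with that of the interaction, and called by the same thresholds. This gave 1159 genes (10.4%), where the wild-type response alone was called in 13.9% and the *Usb1* knockout response in 8.69% of the genes tested. The 815 rising genes (7.33%) had a median response of 1.74 in wild-type and 1.23 in *Usb1* knockout cells on the log2 scale. Of these, 660 (81%) had a smaller rise in *Usb1* knockout cells, and the median interaction was −0.47, against −0.081 over all genes tested. Of the 815, 99 passed the expression filter through wild-type libraries alone, which bears on these values. The split by level below sets most of them apart. The 344 falling genes (3.09%) had medians of −1.51 and −1.32. Among them, 232 (67.4%) had a smaller fall in *Usb1* knockout cells, with a median interaction of 0.167. After quantile normalization the percentages were 73.2 of 477 rising and 73.7 of 482 falling genes, with median interactions of −0.308 and 0.263.

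By mean level, the median interaction of rising genes was −0.504 at 5 to 20 TPM, −0.271 at 20 to 100 TPM and −0.339 above 100 TPM. These were 392, 182 and 48 genes, of which 81.9%, 73.6% and 81.2% had a smaller rise. The median of falling genes was 0.167, 0.144 and 0.248 (110, 132 and 52 genes, of which 64.5%, 68.2% and 75% had a smaller fall). Under 5 TPM, 92 of 193 rising genes passed the expression filter through wild-type libraries alone and 10 through *Usb1* knockout libraries alone, so that the filter bears on their difference, and nothing is read from their median. Of all 815 rising genes, 99 passed through wild-type libraries alone, with 7 of them at 5 to 20 TPM and none above 20 TPM. Without wild-type replicate 1 at day 0, the median over rising genes was −0.355, and without replicate 2 it was −0.668. These fits kept the same weights, which no longer match the precision of the responses. The choice of rising genes then leans towards a smaller rise in *Usb1* knockout cells, which bears on both of these medians.

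Genes that act on RA or read it were taken from a list of 23, of which 18 were tested. Expression rose in 8 of them in wild-type cells and in 9 in *Usb1* knockout cells (background 10.2% and 5.79%), and none fell in either. The response differed at an adjusted p under 0.05 in 4 (background 5.97%), of which 2 were lower and 2 higher in *Usb1* knockout cells. The median interaction of the 18 was −0.129, and 0.00986 after quantile normalization, so it has no stable direction.

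*Crabp2* encodes a cytoplasmic protein that binds RA and carries it to the nuclear receptors (ENSMUSG00000004885; chromosome 3, 87948666 to 87953376, GRCm38). The wild-type libraries of day 0 held 5.86 and 2.73 TPM and the *Usb1* knockout libraries 1.64, 1.27 and 2.79 TPM. By day 1 the gene had reached 71.1, 61 and 65.5 TPM in wild-type cells, against 11.6, 6.9 and 8.28 TPM in *Usb1* knockout cells. The groups of day 1 do not overlap, and the lowest wild-type library is over 5 times the highest *Usb1* knockout library. Here and below, most genes were named for their interaction in these same libraries, so such a separation describes them and adds no evidence. Over all 11120 genes the gap at day 1 had an adjusted p under 0.05 in 4221 (limma), and overlap was not counted. The response of *Crabp2* was 3.72 in wild-type and 1.78 in *Usb1* knockout cells on the log2 scale, a difference of −1.94 (SE 0.36, adjusted p = 0.0104, limma). *Stra6*, the membrane receptor through which cells take up retinol, showed a like pattern (ENSMUSG00000032327; chromosome 9, 58063788 to 58153996). At day 0 both wild-type libraries listed it at 0 and the *Usb1* knockout libraries at 0.0372, 0.108 and 0 TPM, and it stood at 16.7, 14.4 and 13.8 against 4.11, 4.66 and 2.5 TPM at day 1, without overlap. The difference between its responses was −1.84 (SE 0.31, adjusted p = 0.00636, limma), a value that depends on the pseudocount, since day 0 is at or near 0. *Stra6* passed the expression filter through wild-type libraries alone, so the filter bears on its difference. On reads recovered from TPM and tested with limma's voom, the calls of *Crabp2* and *Stra6* were lost (adjusted p = 0.0648 and 0.133) with differences of −1.74 and −3.46, and with a pseudocount of 0.1 that of *Stra6* (−2.51, adjusted p = 0.0725).

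The response of an RA-degrading enzyme went the other way. *Cyp26a1*, a cytochrome P450 that hydroxylates RA (ENSMUSG00000024987; chromosome 19, 37697798 to 37701536), started at 3.66 and 1.78 TPM in wild-type against 0, 0.354 and 0 TPM in *Usb1* knockout cells. The libraries of day 1 overlapped between the genotypes, with 104, 118 and 112 TPM in wild-type against 116, 107 and 108 TPM in *Usb1* knockout cells. The response was larger in *Usb1* knockout cells, 6.65 against 4.96, by 1.69 (SE 0.25, adjusted p = 0.00349, limma), and the genotype gap was −1.70 at day 0 and −0.01 at day 1. The size of 1.69 depends on the pseudocount, since *Usb1* knockout cells were at or near 0 at day 0. It was 3.99 with a pseudocount of 0.1 and 4.71 with voom. *Cyp26c1*, of the same family, had responses of 2.99 in wild-type and 3.88 in *Usb1* knockout cells, a difference of 0.89 (SE 0.26, adjusted p = 0.0673, limma) that missed the threshold. *Dhrs3*, which returns retinaldehyde to retinol, rose from 2.72 and 2.16 to 72.6, 75.6 and 72.2 TPM in wild-type and from 2.66, 3.15 and 2.45 to 75.5, 65.2 and 63.3 TPM in *Usb1* knockout libraries. Its responses differed by −0.24 (SE 0.16, adjusted p = 0.365, limma).

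Of the receptors, *Rarb* is the one that RA induces (ENSMUSG00000017491; chromosome 14, 16430839 to 16819156). It was under 1 TPM in each library at day 0 and at 7.6, 6.78 and 6.65 TPM in wild-type against 4.31, 4.23 and 4.48 TPM in *Usb1* knockout libraries at day 1. Those groups do not overlap, yet the difference between the responses, −0.54 (SE 0.31), missed the threshold (adjusted p = 0.307, limma) and was 0.04 after quantile normalization. *Rarb* passed the expression filter through wild-type libraries alone. *Rarg* was higher in wild-type cells at day 0, at 149 and 175 against 101, 106 and 108 TPM, and closer between the genotypes at day 1, at 132, 129 and 138 against 121, 122 and 114 TPM. Its interaction of 0.45 (SE 0.10, adjusted p = 0.0211, limma) was under 2-fold. *Rara*, *Rxra* and *Rxrb* had interactions of 0.02, 0.10 and −0.08, and the corepressor genes *Ncor1* and *Nrip1* of −0.18 and −0.32, and none of these passed (adjusted p from 0.394 to 0.955, limma).

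RAR and RXR bind best to pairs of half-sites in the same orientation with 5 bases between them, called DR5 elements. The promoters of *Cyp26a1* and *Rarb* each hold such a pair and are printed because these genes share the element. Their interactions were 1.69 and −0.54, of which that of *Rarb* missed the threshold (adjusted p = 0.307, limma) and was 0.04 after quantile normalization. No opposite direction of the 2 genes is read from these values. Each sequence is the 250 bases before the transcription start in the gene's own orientation, 5′ to 3′, from RefSeq on GRCm38.p6, at chr19:37697558-37697807 (plus strand) for *Cyp26a1* and chr14:16575477-16575726 (minus strand) for *Rarb*. Capitals mark the element. In *Cyp26a1* it lies on the opposite strand, 32 to 16 bases before the start, and in *Rarb* on the gene's strand, 53 to 37 bases before it.
Cyp26a1: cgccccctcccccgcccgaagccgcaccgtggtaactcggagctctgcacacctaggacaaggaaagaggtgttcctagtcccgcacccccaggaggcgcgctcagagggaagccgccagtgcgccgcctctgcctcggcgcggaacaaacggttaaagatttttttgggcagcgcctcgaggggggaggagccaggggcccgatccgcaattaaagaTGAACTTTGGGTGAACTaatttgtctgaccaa
Rarb: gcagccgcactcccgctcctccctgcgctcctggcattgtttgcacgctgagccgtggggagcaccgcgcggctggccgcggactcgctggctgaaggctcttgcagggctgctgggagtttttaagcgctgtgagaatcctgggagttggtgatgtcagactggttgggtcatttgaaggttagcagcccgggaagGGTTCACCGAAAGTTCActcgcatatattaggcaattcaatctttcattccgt
The half-sites searched were AGGTCA and, as variants of it, AGTTCA and then GGGTCA and also the form GGTTCA, in any combination with 5 bases between them, on both strands. Of 32851 promoter windows of this length, 32 (0.0974%) hold such a pair. Among the rising RA-responsive genes, 615 of 815 were matched, and of their 824 windows only those of *Cyp26a1* and *Rarb* hold one. Of the 127 genes with a different response, 94 were matched, and *Cyp26a1* alone holds one. Elements farther away or of other spacing were not searched.

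**Figure D2:**
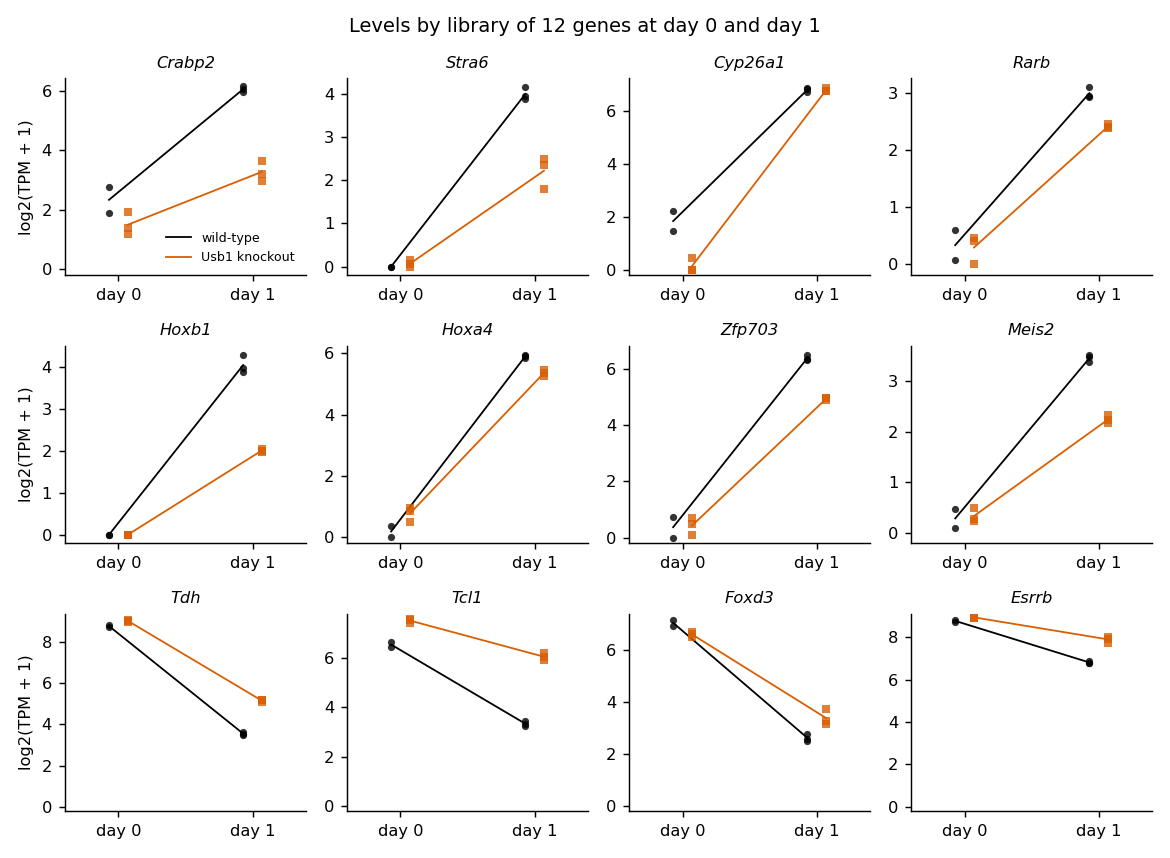
Level of 12 genes in each library at day 0 and day 1, on the log2(TPM + 1) scale, in wild-type (black circles) and *Usb1* knockout (orange squares) cells, with lines between the group means. *Crabp2*, *Stra6*, *Hoxb1*, *Zfp703* and *Meis2* ended lower in *Usb1* knockout cells, *Cyp26a1* started lower and ended level, and *Tdh*, *Tcl1*, *Foxd3* and *Esrrb* ended higher.

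Hox genes, which encode homeodomain factors that give cells their position along the body axis, rose in both genotypes. Of 39 listed, 18 were tested, all from the A, B and C clusters. All 18 rose in wild-type and in *Usb1* knockout cells (background 10.2% and 5.79%). A Hox gene at or near 0 at day 0 passes the expression filter only if it is high at day 1. The filter therefore bears on this count, and nothing is read from it. The median response was 3.72 in wild-type and 2.79 in *Usb1* knockout cells. In 17 of the 18 the response was smaller in *Usb1* knockout cells (15 of 18 after quantile normalization), where 62% of all genes tested had an interaction below 0 (49.6% after quantile normalization), with a median interaction of −0.733, or −0.273 after quantile normalization. The difference passed an adjusted p of 0.05 in 5 genes, all lower (background 3.75%), and 3 of them were called (background 0.836%). Of the 18, 4 passed the expression filter through wild-type libraries alone.

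*Hoxb1*, at the 3′ end of its cluster and among the first to respond to RA, showed the largest difference (ENSMUSG00000018973; chromosome 11, 96365752 to 96368256). It was listed at 0 in all 5 libraries at day 0 and stood at 18.6, 13.8 and 14.8 TPM in wild-type against 3.01, 2.97 and 3.14 TPM in *Usb1* knockout libraries at day 1. *Hoxb1* passed the expression filter through wild-type libraries alone, so the filter bears on its difference. The interaction was −2.04 (SE 0.27, adjusted p = 0.00165, limma), a value that depends on the pseudocount. Its call was lost with a pseudocount of 0.1 (−2.32, adjusted p = 0.0858) and with voom on recovered reads (−2.29, adjusted p = 0.206), though the difference was no smaller.

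*Hoxa4* reached 60.4, 59.5 and 56.9 TPM in wild-type against 39.9, 43.2 and 37.7 TPM in *Usb1* knockout libraries, with an interaction of −1.13 (SE 0.21, adjusted p = 0.0104, limma). It fell under 2-fold without wild-type replicate 1 at day 0 (−0.95) and after quantile normalization (−0.63). *Hoxa7* was at 13.9, 11.2 and 14.9 and 11.4, 12.1 and 12.4 TPM at day 1, with overlap, after 0 and 0 and 0.979, 1.16 and 0.453 TPM at day 0, so the genotypes differed at day 0. Its interaction was −1.01 (SE 0.27, adjusted p = 0.0443, limma), and its call was lost without any one of 9 of the 11 libraries. *Hoxa5* was the Hox gene with the highest level at day 1, 100.5, 108 and 112 TPM in wild-type against 83.3, 78.4 and 82.1 TPM in *Usb1* knockout libraries, with an interaction of −0.67 (SE 0.17, adjusted p = 0.0401, limma). *Hoxb9* was at 33.6, 30.7 and 32.3 against 20.7, 16.2 and 17.6 TPM, with an interaction of −0.99 (SE 0.16, adjusted p = 0.00557, limma), just under 2-fold.

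Of 30 other genes that RA is known to induce, 19 were tested, and 12 rose in each genotype (background 10.2% in wild-type and 5.79% in *Usb1* knockout cells). None fell in wild-type cells and 2 fell in *Usb1* knockout cells, *Tgm2* among them (background 3.66% and 2.9%). The difference passed an adjusted p of 0.05 in 6, all lower in *Usb1* knockout cells (background 3.75%), and the median interaction was −0.391. After quantile normalization 3 were lower and 1 was higher, with a median of −0.217. *Zfp703*, a zinc-finger repressor of transcription (ENSMUSG00000085795; chromosome 8, 26977325 to 26981461), went from 0 and 0.666 to 82.1, 78.5 and 89.3 TPM in wild-type and from 0.639, 0.0617 and 0.384 to 30.3, 28.6 and 30.5 TPM in *Usb1* knockout libraries, with an interaction of −1.50 (SE 0.28, adjusted p = 0.0105, limma). *Meis2*, a homeodomain cofactor of Hox proteins (ENSMUSG00000027210; chromosome 2, 115863064 to 116065839), was at 10.4, 9.36 and 10.04 against 4.0, 3.52 and 3.7 TPM at day 1, with an interaction of −1.26 (SE 0.27, adjusted p = 0.0206, limma). Neither pair of day 1 groups overlaps, and *Meis2* passed the expression filter through wild-type libraries alone. Both calls were lost with a pseudocount of 0.1 (−1.96 and −1.68, adjusted p = 0.235 and 0.155) and with voom (−2.49 and −1.96, adjusted p = 0.201 and 0.0714), and that of *Meis2* after quantile normalization (−0.73, adjusted p = 0.123) and without *Usb1* knockout replicate 2, wild-type replicate 1 or wild-type replicate 3 of day 1 (adjusted p of at most 0.0615).

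*Tgm2*, a transglutaminase (ENSMUSG00000037820; chromosome 2, 158116402 to 158146436), differed in another way. It started at 17.3 and 21.2 TPM in wild-type against 44.4, 45.8 and 49.3 TPM in *Usb1* knockout cells and converged at day 1, at 13.4, 8.34 and 10.2 and 10.5, 10.8 and 9.41 TPM. The interaction was −1.27 (SE 0.21, adjusted p = 0.00561, limma). *Stra8*, which starts meiosis in germ cells, is a counterexample among the strongest responders. It was lower in *Usb1* knockout cells on both days, at 9.01, 10.7 and 11.2 against 25.4 and 25 TPM at day 0 and 386, 382 and 421 against 841, 861 and 905 TPM at day 1. Its responses, 5.05 and 5.14, differed by 0.09 (SE 0.11, adjusted p = 0.652, limma).

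The genes with the largest lower responses were of mixed kind. The 10 with the most negative interaction, among those that held without either wild-type library of day 0, are *Sumo2* and *Pdzd7*, which differed at day 0 and are described with the gaps by day, and 8 that differed at day 1. *Neurog3*, a bHLH factor of endocrine progenitors (ENSMUSG00000044312; chromosome 10, 62133090 to 62134763), went from 0 and 2.16 to 34.7, 33.5 and 41.7 TPM in wild-type and from 2.72, 0.625 and 1.82 to 7.98, 6.66 and 7.91 TPM in *Usb1* knockout libraries, an interaction of −2.67 (SE 0.54, adjusted p = 0.0151, limma). *Olig3*, a bHLH factor of the dorsal neural tube (ENSMUSG00000045591; chromosome 10, 19356533 to 19358604), was at 27.7, 26.6 and 29.4 against 5.73, 5.67 and 6.95 TPM at day 1 after at most 0.209 TPM in any library of day 0, an interaction of −2.12 (SE 0.24, adjusted p = 6.77e-04, limma). In both genes every wild-type library of day 1 was over 3 times the highest *Usb1* knockout library.

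*Rasgrp3*, a guanine nucleotide exchange factor for Ras (ENSMUSG00000071042; chromosome 17, 75435896 to 75529054), was at 11.3, 9.71 and 12.4 TPM in wild-type against 1.68, 1.61 and 1.48 TPM in *Usb1* knockout libraries at day 1 and at most 0.184 TPM at day 0. Its interaction was −2.22 (SE 0.29, adjusted p = 0.00165, limma). *Rasgrp3* passed the expression filter through wild-type libraries alone, so the filter bears on its difference. *Crygc*, a lens crystallin gene, was at 27.4, 29.99 and 27.7 against 6.75, 4.9 and 5.37 TPM at day 1 (interaction −2.29, SE 0.29, adjusted p = 0.00157, limma), and *Sertad4* at 25.6, 22.8 and 25.8 against 8.48, 10.2 and 8.82 TPM (interaction −2.32, SE 0.30, adjusted p = 0.00165, limma). None of the day 1 groups of these 3 genes, which were chosen on the same libraries, overlap. *Pgbd5*, derived from a piggyBac transposase, *Wfikkn1*, a secreted protein with protease inhibitor domains, and *Pgam2*, the muscle phosphoglycerate mutase, had interactions of −2.11, −2.07 and −2.07 (adjusted p = 0.00985, 0.037 and 0.0285, limma). *Wfikkn1* lost its call without any one of 9 libraries and *Pgam2* without any one of 6 (adjusted p of at most 0.0864 and 0.0717). Without wild-type replicate 1 at day 0 their interactions were −1.19 and −1.25, and without replicate 2 they were −2.95 and −2.89. *Wfikkn1* passed the expression filter through wild-type libraries alone. With a pseudocount of 0.1 the calls of *Neurog3*, *Crygc*, *Rasgrp3* and *Wfikkn1* were lost (adjusted p = 0.0882, 0.1, 0.0713 and 0.109), as were with voom those of *Crygc*, *Rasgrp3* and *Olig3* (adjusted p = 0.14, 0.0674 and 0.129). Their differences under those settings were larger than in the fit above, the smallest being −2.78 for *Crygc* with voom.

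Genes of naive pluripotency, which RA lowers, had an interaction below 0 in 6 of 22 (3 after quantile normalization), against 62% of all genes tested (49.6%). Of the 22 tested, from 23 listed, 10 fell in wild-type and 11 in *Usb1* knockout cells (background 3.66% and 2.9%), and the median response was −0.966 and −0.997. In 10 of the 22 the response was higher in *Usb1* knockout cells at an adjusted p under 0.05 and in 2 it was lower, against 2.22% and 3.75% of all genes tested. After quantile normalization the list had 11 higher and 2 lower, while the balance over all genes turned, from 247 higher and 417 lower to 484 and 379. The median interaction was 0.317 (0.377 after quantile normalization). The list was not uniform, since *Klf4*, *Klf5*, *Nr0b1* and *Tet2* fell in both genotypes and had interactions between −0.16 and 0.07.

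*Tcl1*, a coactivator of AKT kinase, had the largest difference of the list (ENSMUSG00000041359; chromosome 12, 105216750 to 105222793). It began at 85.3 and 98.4 TPM in wild-type, against 170.2, 186 and 187 TPM in *Usb1* knockout cells. A day later, wild-type libraries had fallen to 9.77, 8.4 and 9.07 TPM and *Usb1* knockout libraries to 71.2, 58.8 and 65 TPM. The interaction was 1.74 (SE 0.13, adjusted p = 2.90e-05, limma), and the groups overlap on neither day. *Tdh*, the threonine dehydrogenase on whose product mouse embryonic stem cells depend (ENSMUSG00000021953; chromosome 14, 63492347 to 63509092), fell most of all genes in wild-type cells, from 442 and 426 to 10.7, 11.4 and 10.02 TPM, and in *Usb1* knockout cells from 498, 521 and 535 to 35.2, 35.2 and 32.8 TPM. The interaction was 1.34 (SE 0.09, adjusted p = 1.80e-05, limma).

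*Esrrb*, an orphan nuclear receptor of the naive network, fell from 430.0 and 449.8 to 117, 110.1 and 109 TPM in wild-type libraries and from 488, 484 and 510.2 to 246, 258 and 215 TPM in *Usb1* knockout libraries. The interaction of 0.92 (SE 0.10, adjusted p = 3.91e-04, limma) was under 2-fold and reached it after quantile normalization (1.01) and with equal medians (1.01). *Zfp42* (Rex1), a zinc-finger marker of naive cells, fell from 1285 and 1238 to 296, 296 and 280.1 TPM and from 1218, 1311 and 1272 to 546, 560.1 and 539 TPM, with an interaction of 0.91 (SE 0.07, adjusted p = 2.90e-05, limma). The day 0 libraries of the genotypes overlap for *Zfp42*, and at day 1 every *Usb1* knockout library was above every wild-type library. *Nanog* was at 803 and 836 TPM in wild-type against 764, 809 and 859.8 TPM in *Usb1* knockout libraries at day 0, and at 689.9, 715 and 734 and 1006, 1026 and 1044 TPM at day 1. Neither response reached 2-fold, and the interaction was 0.54 (SE 0.08, adjusted p = 0.00227, limma). The exceptions with a lower response were *Tbx3* (−0.54, adjusted p = 0.00836, limma) and *Tfap2c* (−0.67, adjusted p = 0.00911, limma).

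The core factors moved little. *Pou5f1*, which encodes Oct4, had responses of −0.51 and −0.33, and *Sox2* of −0.30 and −0.58, with interactions of 0.18 (SE 0.08, adjusted p = 0.182, limma) and −0.28 (SE 0.09, adjusted p = 0.075, limma). Over the 20 tested genes of core and formative pluripotency, the median interaction was −0.0924. At an adjusted p under 0.05, 5 were higher (background 2.22%) and 1 was lower (background 3.75%). *Foxd3*, a forkhead factor of the epiblast (ENSMUSG00000067261; chromosome 4, 99656299 to 99658622), fell from 124 and 144 to 4.73, 4.93 and 5.88 TPM in wild-type and from 91.7, 104 and 97.4 to 8.67, 12.3 and 7.93 TPM in *Usb1* knockout libraries, an interaction of 1.21 (SE 0.20, adjusted p = 0.00587, limma). *Fgf15*, a growth factor ligand, fell in wild-type cells, from 18.3 and 11.7 to 6.32, 6.46 and 6.12 TPM, and was at 12.8, 17.2 and 16.2 and 21.3, 14.8 and 16.1 TPM in *Usb1* knockout libraries (interaction 1.26, SE 0.26, adjusted p = 0.0151, limma, 0.96 without wild-type replicate 1 at day 0). *Otx2*, a homeodomain factor of the formative state, had the one lower response, at 6.14, 5.18 and 5.74 TPM in wild-type against 2.26, 2.26 and 3.27 TPM in *Usb1* knockout libraries at day 1 (interaction −1.13, SE 0.27, adjusted p = 0.0316, limma). It lost its call without any one of 8 libraries (adjusted p of at most 0.0757).

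Of 17 genes of the LIF pathway, 1 had a lower response at an adjusted p under 0.05 (background 3.75%) and none a higher one (2.22%). *Socs3*, a feedback inhibitor that STAT3 induces (ENSMUSG00000053113; chromosome 11, 117966079 to 117970047), fell from 231 and 249.5 to 22.7, 22.1 and 21.9 TPM in wild-type and from 249, 232 and 252 to 12.2, 11.7 and 11.5 TPM in *Usb1* knockout libraries. It fell further in *Usb1* knockout cells, unlike *Esrrb* and *Zfp42*, with an interaction of −0.88 (SE 0.09, adjusted p = 3.78e-04, limma) that was under 2-fold.

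The genes with the largest higher responses, beside *Tcl1* and *Cyp26a1*, included several that RA lowers. *Fgf17*, a fibroblast growth factor (ENSMUSG00000022101; chromosome 14, 70636203 to 70642268), fell from 56.4 and 49.5 to 2.08, 3.52 and 2.87 TPM in wild-type and from 47.2, 53.8 and 54.5 to 12.8, 9.6 and 8.64 TPM in *Usb1* knockout libraries, an interaction of 1.60 (SE 0.23, adjusted p = 0.00278, limma). *Nphs1*, which encodes nephrin of the kidney filter, fell from 27.6 and 35.3 to 2.02, 1.48 and 1.73 and from 20.9, 16.4 and 17.9 to 4.07, 5.66 and 3.88 TPM (interaction 1.74, SE 0.24, adjusted p = 0.00188, limma). In both genes the day 1 libraries of the genotypes do not overlap.

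*Slc27a2*, a fatty acid transporter, and *Cited4*, a transcriptional coactivator, differed at day 0 instead. *Slc27a2* was at 18.2 and 16.3 TPM in wild-type against 6.17, 4.96 and 4.86 TPM in *Usb1* knockout libraries at day 0 and at 1.58, 2.26 and 0.997 and 2.26, 2.16 and 1.94 TPM at day 1 (interaction 1.81, SE 0.28, adjusted p = 0.004, limma). *Cited4* was at 19.4 and 17.5 and 4.68, 7.37 and 8.17 TPM at day 0 and overlapped at day 1 (interaction 1.77, SE 0.37, adjusted p = 0.0179, limma). *Pdyn*, the precursor of dynorphin opioids, was under 10 TPM in each library and had opposite responses under 2-fold, −0.82 and 0.81, with an interaction of 1.64 (SE 0.27, adjusted p = 0.00587, limma). *Gm13889* rose in both genotypes and further in *Usb1* knockout cells, to 59, 73.8 and 72.5 against 107, 119.5 and 106 TPM (interaction 1.48, SE 0.23, adjusted p = 0.004, limma). *Gm266* and *AC170998.1* had interactions of 1.67 and 2.34 (adjusted p = 0.0096 and 0.00257, limma), and both were lower in *Usb1* knockout cells at day 0, as with *AC170998.1* at 4.91, 4.4 and 3.16 against 24.7 and 12.8 TPM. *AC170998.1* may share reads with near-identical copies, so its value is uncertain. Both *Gm266* and *AC170998.1* passed the expression filter through wild-type libraries alone.

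Signalling pathways that act beside RA gave genes in both directions. The counts of the lists that follow are read against 2.22% of all genes tested with a higher and 3.75% with a lower response at an adjusted p under 0.05. In the FGF and ERK list, 2 of 18 tested were higher at an adjusted p under 0.05 and none lower. *Etv4*, an ETS factor that ERK signalling induces (ENSMUSG00000017724; chromosome 11, 101769742 to 101785371), fell from 269 and 276 to 49.5, 54.4 and 53 TPM in wild-type and from 240.4, 248 and 243 to 95, 114 and 90.8 TPM in *Usb1* knockout libraries, an interaction of 1.07 (SE 0.11, adjusted p = 3.91e-04, limma), which was 0.977 without *Usb1* knockout replicate 2 of day 1. In the Nodal and activin list, 2 of 17 were higher and none lower. *Inhbb*, a subunit of activin B (ENSMUSG00000037035; chromosome 1, 119415465 to 119422248), fell from 562 and 544 to 119, 118 and 112 TPM in wild-type cells, and was at 689.7, 637 and 655 and then 400.2, 397 and 368 TPM in *Usb1* knockout libraries, a response of −0.76 that was under 2-fold. Its interaction, 1.48 (SE 0.08, adjusted p = 1.43e-06, limma), had the smallest adjusted p of all genes tested.

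Of 17 genes of bone morphogenetic protein (BMP) signalling, 4 had a lower response at an adjusted p under 0.05 and none a higher one. *Msx1*, a homeobox gene that BMP induces (ENSMUSG00000048450; chromosome 5, 37820485 to 37824583), reached 21.9, 18 and 19.6 TPM in wild-type against 3.36, 2.16 and 3.78 TPM in *Usb1* knockout libraries from under 1 TPM at day 0, an interaction of −1.83 (SE 0.28, adjusted p = 0.004, limma). Its call was lost with a pseudocount of 0.1 and with voom (−1.29 and −1.09, adjusted p = 0.149 and 0.335). *Msx1* passed the expression filter through wild-type libraries alone. *Id3*, an inhibitor of bHLH factors, was at 154, 162 and 172 against 96.3, 92.2 and 102 TPM at day 1 (interaction −1.01, SE 0.14, adjusted p = 0.00189, limma, between −1.19 and −0.828 when each library was left out in turn). In the Wnt list 4 of 19 were lower and 1 was higher. *Sfrp5*, a secreted inhibitor, rose in wild-type cells to 25, 26.8 and 24.8 TPM against 6.92, 8.0 and 6.46 TPM (interaction −1.37, SE 0.19, adjusted p = 0.00216, limma), the receptor *Fzd2* rose to 51.9, 45.9 and 47.9 against 36.2, 32.5 and 33.3 TPM (interaction −1.34, SE 0.26, adjusted p = 0.013, limma, −0.90 without wild-type replicate 1 at day 0), and *Notum*, which inactivates Wnt ligands, fell to 7.12, 6.97 and 7.5 against 12.5, 10.9 and 13.2 TPM (interaction 1.06, SE 0.14, adjusted p = 0.00165, limma, 0.98 without wild-type replicate 2 at day 0).

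Lineage markers gave few calls. Of 15 primitive endoderm genes tested, 4 had a lower response and 1 a higher one at an adjusted p under 0.05, with a median interaction of −0.273. *Sox7*, an endoderm factor (ENSMUSG00000063060; chromosome 14, 63943673 to 63950732), was at 6.79 and 16.7 TPM in wild-type against 6.83, 7.61 and 7.76 TPM in *Usb1* knockout libraries at day 0, and at 29.2, 29.9 and 30.04 against 5.46, 4.49 and 4.77 TPM at day 1, an interaction of −1.90 (SE 0.33, adjusted p = 0.00702, limma). All 7 neuroectoderm genes tested had an interaction below 0, also after quantile normalization, with 2 under an adjusted p of 0.05. *Sox4* was at 50.3, 40.5 and 45.1 against 22.1, 22.1 and 17.3 TPM at day 1 (interaction −1.27, SE 0.18, adjusted p = 0.00278, limma), and *Sox11* at 11.4, 12.3 and 10.9 against 5.41, 5.88 and 5.01 TPM (interaction −1.29, SE 0.35, adjusted p = 0.0477, limma), the latter without its call when any one of 10 libraries was left out (adjusted p of at most 0.102) and at −0.72 without wild-type replicate 1 of day 0. Of 5 mesoderm genes, 1 was lower and 1 higher. *Twist1* had a gap of 1.42 at day 0 and an interaction of −1.04 (SE 0.27, adjusted p = 0.0417, limma), and lost its call after quantile normalization (−0.39, adjusted p = 0.477), with equal medians (adjusted p = 0.0588), with voom (adjusted p = 0.0858) and without any one of 9 libraries (adjusted p of at most 0.101). Of 17 germline genes, 1 was lower and 1 higher. *Rec8*, a meiotic cohesin subunit (ENSMUSG00000002324; chromosome 14, 55618037 to 55625395), rose to 100.1, 102 and 103 TPM in wild-type libraries and was at 35, 34.5 and 29.6 TPM in *Usb1* knockout libraries (interaction −1.49, SE 0.18, adjusted p = 0.00121, limma), and *Nanos3*, an RNA-binding protein of germ cells, fell in wild-type cells and was at 6.9, 7.35 and 5.96 against 12.9, 14.7 and 10.6 TPM (interaction 1.36, SE 0.29, adjusted p = 0.0191, limma, adjusted p = 0.0515 without wild-type replicate 3 of day 1).

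Genes tied to U6 or to cell stress gave no calls. Of 21 tested genes of U6 biogenesis and binding, 1 was higher and 1 lower, none was called, and the median interaction was −0.0195. Of 20 p53 target genes, 5 were lower and none higher, all under 2-fold, with a median of −0.11. *Cdkn1a*, the inhibitor of cyclin-dependent kinases, had responses of 0.11 and −0.49 and an interaction of −0.60 (SE 0.13, adjusted p = 0.0179, limma). Lists of cell cycle regulators, Myc and Lin28, polycomb, glycolysis, and heat shock and stress genes gave 1 of 24, 1 of 8, 5 of 22, 1 of 21 and 3 of 15 genes at an adjusted p under 0.05, and none was called. None of the 14 genes of 2-cell-like cells passed the expression filter. Lists of cholesterol synthesis, interferon and antigen presentation, imprinted, Y-linked and feeder fibroblast genes gave none, of 22, 13, 14, 3 and 5 tested.

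**Figure D3:**
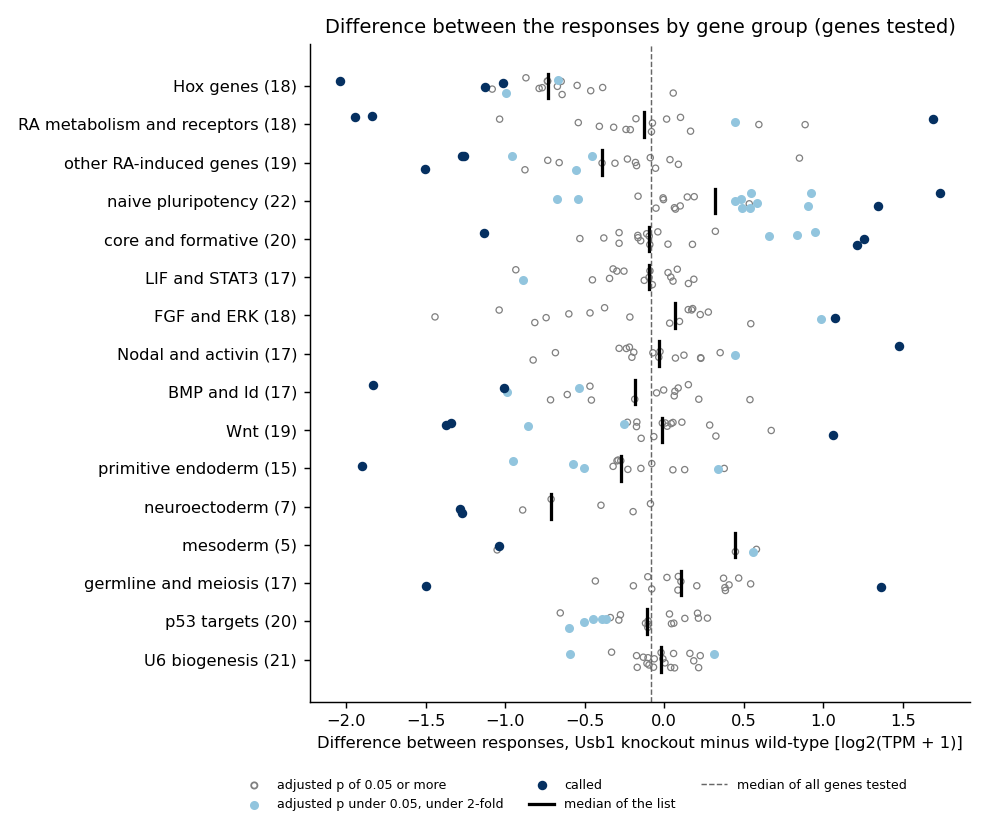
Difference between the responses (*Usb1* knockout minus wild-type, log2 scale) of each tested gene of 16 lists, with the number tested in brackets. Dark points are called genes, light blue points have an adjusted p under 0.05 and less than 2-fold, open points have neither, black bars are list medians and the dashed line is the median of all genes tested, −0.081. The Hox bar is at −0.733 and that of naive pluripotency at 0.317.

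Since the interaction is the genotype gap at day 1 minus that at day 0, each of the 127 genes was looked at by day. The gap was larger at day 1 in 82 genes and at day 0 in 45. Between the genotypes, 27 of the 127 were called at day 0, against a background of 2.38% of all genes tested. In *Usb1* knockout cells 16 of them were higher (background 1.16%) and 11 lower (background 1.22%). At day 1, 55 of the 127 were called (background 2.5%), 10 higher (background 0.567%) and 45 lower (background 1.93%). The 127 were chosen by the difference between these gaps, so the background is no test of them. Only *Gadd45g* and *Aire*, named after their values were seen, were called on both days, and 47 genes on neither. Of the 93 genes with a lower response, 89 were lower in *Usb1* knockout cells at day 1, with a median gap of 0.334 at day 0 and −0.942 at day 1. Of the 34 with a higher response, 29 were higher in *Usb1* knockout cells at day 1, with median gaps of −0.554 and 0.738.

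The genes with the larger gap at day 0 include the extreme of the comparison. *Sumo2*, which encodes a small ubiquitin-like modifier, had the largest interaction of all, −2.84 (SE 0.29, adjusted p = 3.78e-04, limma). It stood at 35.3 and 30.4 TPM in wild-type cells at day 0, 215, 223 and 288 TPM in *Usb1* knockout cells, and 204, 214 and 157 and 229.6, 226 and 132 TPM at day 1, so that the wild-type libraries of day 0 stand alone. Near-identical copies of this gene exist and may share its reads, so this value is uncertain. *Pdzd7*, a scaffold of hair cells, was at 0.512 and 1.99 TPM in wild-type against 11.3, 7.47 and 8.71 TPM in *Usb1* knockout libraries at day 0 and overlapped at day 1 (interaction −2.28, SE 0.35, adjusted p = 0.004, limma). It passed the expression filter through *Usb1* knockout libraries alone. Wild-type replicate 1 at day 0 was listed at 0 for 28 of the 93 genes with a lower response, against 161 of all 11120, and both wild-type libraries for 5. Through wild-type libraries alone, 22 of the 93 and 4 of the 34 passed the filter, against 276 of all 11120. For such genes the filter bears on the difference.

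**Figure D4:**
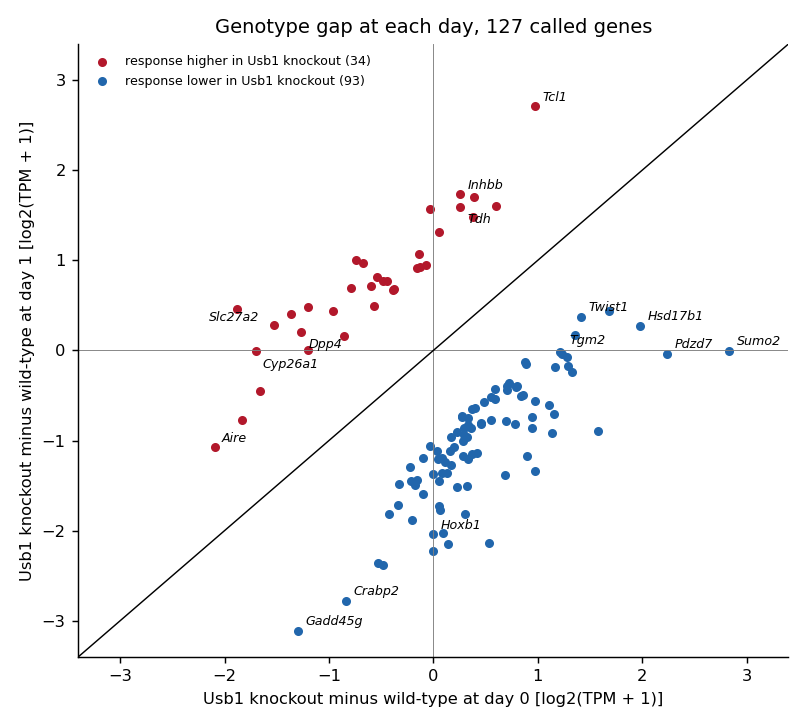
Genotype gap (*Usb1* knockout minus wild-type, log2 scale) at day 0 (x axis) and day 1 (y axis) of the 127 genes whose response differed. The diagonal marks an equal gap on both days. Of the 93 genes with a lower response (blue), 89 lie below 0 on the y axis, and their median on the x axis is 0.334 over all 93. In 31 of the 93 the gap is larger at day 0, *Sumo2* and *Pdzd7* among them.

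The 6 libraries of day 3, outside the comparison, show whether the gap was still there. Over the 127 genes the median gap at day 3 was 0.00733 for those with a lower and 0.112 for those with a higher response. At day 3, 6 of the 127 (4.72%) were called between the genotypes, against 1.12% of all genes tested. Of these 6, 3 were higher (background 0.665%) and 3 lower (background 0.45%). Among the 55 with a call at day 1, 51 showed a gap under 2-fold at day 3, 22 had the opposite sign, and 2 were called in the same direction. A gap under 2-fold at day 3 is the rule, since only 133 of all 11120 genes tested had a larger one. The median size of the gap in these 55 went from 1.45 to 0.281. The 55 were chosen for their gap at day 1, and the part of that choice in the decrease was not tested.

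*Crabp2* had passed to the other side at day 3, with 82.6, 101 and 73.5 TPM in wild-type against 148, 141 and 130.3 TPM in *Usb1* knockout libraries, a gap of 0.71 (SE 0.11, adjusted p = 0.0041, limma). *Hoxb1* was level, at 39.6, 36.5 and 33.6 and 38.8, 43.1 and 40.9 TPM, a gap of 0.16 (SE 0.09, adjusted p = 0.34, limma). *Rasgrp3*, higher at day 3 than at day 1 in both genotypes, stood at 71.5, 77 and 97.4 and 49.8, 56.7 and 64.5 TPM, a gap of −0.51 after −2.22 at day 1. Over the 18 Hox genes the median gap was −0.557 at day 1 and −0.121 at day 3, and none was called at day 3.

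Among the genes whose response differed, the exceptions were the 6 called at day 3. *Sfrp5* and *Fgf15* kept the direction of day 1, with gaps of −1.54 and 1.03, and *Etv4*, under 2-fold at day 1, had 1.44. *Sertad4* and *Tdh* reversed, with 1.05 after −1.34 and −1.11 after 1.60. *Cyp26a1*, level at day 1, opened a gap at day 3, with 440.1, 419 and 347 TPM in wild-type against 84.3, 113 and 69 TPM in *Usb1* knockout libraries, −2.19 on the log2 scale (SE 0.16, adjusted p = 7.09e-05, limma). Whole lists, whatever the call for the interaction, did not all follow. Of 22 naive pluripotency genes, 3 were called between the genotypes at day 1 and 6 at day 3 (background 2.5% and 1.12%). In the FGF and ERK list these were 1 and 8 of 18, and in primitive endoderm 6 of 15 on both days. Hox genes went from 3 to none, and other RA-induced genes from 7 to 1 of 19. The gap grew in *Nanog* (0.52 to 1.90) and *Esrrb* (1.09 to 1.76) and shrank in *Tcl1* (2.71 to 0.24).

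**Figure D5:**
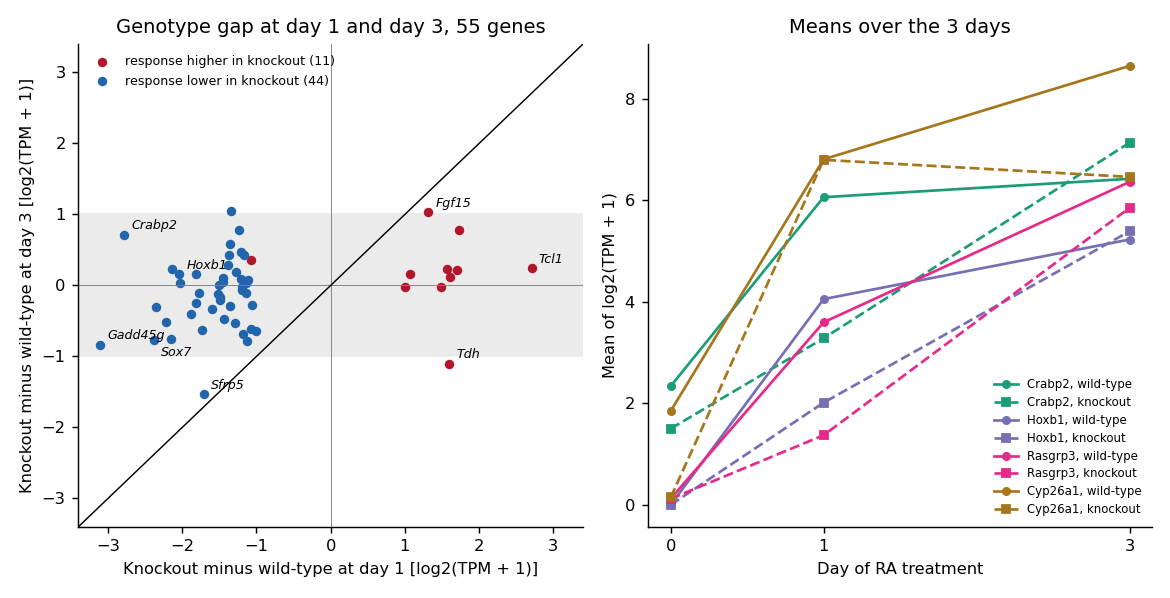
Left, genotype gap (*Usb1* knockout minus wild-type, log2 scale) at day 1 and day 3 of the 55 genes called on both the interaction and the day 1 gap, where the grey band is under 2-fold at day 3 and holds 51 of them. Of all 11120 genes tested, 133 had a gap of 2-fold or more at day 3. Right, group means of *Crabp2*, *Hoxb1*, *Rasgrp3* and *Cyp26a1* at day 0, 1 and 3 in wild-type (solid lines, circles) and *Usb1* knockout (dashed lines, squares) cells.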

How the data were processed

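Bulk RNA of wild-type and *Usb1* knockout cells was sequenced by the authors from NEBNext Ultra libraries. The deposited values are TPM per gene, which the authors computed from gene length and mapped reads. The submitters' processing notes name HISAT2 2.1.0, StringTie 1.3.6 and GRCm38.p6. They are not counts, so tests were run on log2(TPM + 1) without further scaling. Identifiers were matched to GENCODE M21 (54495 of 54532), from which protein-coding genes, coordinates and exon lengths were taken. No column was left unused. Reads were recovered from TPM, exon length and a step of each library, and 95.9% to 96.7% were whole within 0.01.

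limma 3.58.1 (R 4.3.3) was fitted to the 4 group means of the 11 libraries, with a variance trend and Benjamini-Hochberg adjustment over 11120 genes, and to the 6 libraries of day 3 alone. Calls needed an adjusted p under 0.05 and 2-fold. RA-responsive genes were called on the mean response weighted 5/9 for *Usb1* knockout and 4/9 for wild-type cells. The script was tested on simulated data. Tables were made with pandas 2.3.3 under Python 3.11.15 (numpy 2.4.6), and plots with matplotlib 3.10.9.

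The members and the 27 gene lists were chosen with earlier results of these data known. Named genes were *Usb1*, the 10 largest calls in each direction that held without either wild-type library of day 0, called members of the lists, and 12 landmark genes. Other members of the RA list, and the Hox, naive pluripotency and p53 genes outside this rule, were named after their values were seen. Replicates are the authors' biological replicates, and p-values measure the spread between them. The alternatives were a pseudocount of 0.1, other filters, all biotypes, adjusted p alone, quantile and equal-median scaling, robust variances, all 17 libraries, limma's voom, a replicate block, and leaving out each library. RA-responsive genes under each setting and by level were added after seeing the data. Splicing was not analysed here, and some tested genes are not reported here.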

Additional observations from a re-analysis of the deposited data

Results flagged for a closer look

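By the interaction test, the change from day 0 to day 1 differed between wild-type and *Usb1* knockout cells in 127 genes. The 45 of these that the rule for named genes picked, and *Gadd45g* and *Aire* beside it, are listed because this test separated the genotypes. The values that follow are differences between the responses on the log2(TPM + 1) scale, *Usb1* knockout minus wild-type.

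Among genes of RA and its targets, the difference was −1.94 for *Crabp2*, −1.84 for *Stra6*, 1.69 for *Cyp26a1*, −2.04 for *Hoxb1*, −1.13 for *Hoxa4*, −1.01 for *Hoxa7*, −1.50 for *Zfp703*, −1.27 for *Tgm2* and −1.26 for *Meis2*. Among genes of pluripotency it was 1.74 for *Tcl1*, 1.34 for *Tdh*, 1.21 for *Foxd3*, 1.26 for *Fgf15* and −1.13 for *Otx2*.

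For signalling genes it was 1.48 for *Inhbb*, 1.07 for *Etv4*, 1.06 for *Notum*, −1.37 for *Sfrp5*, −1.34 for *Fzd2*, −1.01 for *Id3* and −1.83 for *Msx1*, and for lineage and germline genes −1.90 for *Sox7*, −1.27 for *Sox4*, −1.29 for *Sox11*, −1.04 for *Twist1*, −1.49 for *Rec8* and 1.36 for *Nanos3*.

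Of the largest lower responses it was −2.84 for *Sumo2*, −2.67 for *Neurog3*, −2.32 for *Sertad4*, −2.29 for *Crygc*, −2.28 for *Pdzd7*, −2.22 for *Rasgrp3*, −2.12 for *Olig3*, −2.11 for *Pgbd5*, −2.07 for *Wfikkn1* and −2.07 for *Pgam2*. Of the largest higher responses it was 2.34 for *AC170998.1*, 1.81 for *Slc27a2*, 1.77 for *Cited4*, 1.74 for *Nphs1*, 1.67 for *Gm266*, 1.64 for *Pdyn*, 1.60 for *Fgf17* and 1.48 for *Gm13889*. *Sumo2*, *Pdzd7*, *Slc27a2*, *Cited4*, *Gm266* and *AC170998.1* were called between the genotypes at day 0 and not at day 1. For *Gadd45g* and *Aire*, called on both days, the differences between the responses were −1.82 and 1.02.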

How the results depend on the processing

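Each of the 127 genes kept its sign under all settings in which it was measured. With TPM of at least 20 in 2 libraries, where fewer genes were tested, 65 were called (21 higher, 44 lower), and with adjusted p alone 664 (247 higher, 417 lower). These same settings gave 781 and 6546 genes for the wild-type response, 512 and 5552 for the *Usb1* knockout response, 118 and 2740 for the genotype gap at day 0, 155 and 4221 at day 1, 74 and 978 at day 3, and 595 and 7321 for the weighted mean response. With all biotypes, 404 genes were called at day 0. Quantile normalization gave 66 higher and 57 lower, and 83 of the 127 genes were still called.

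Leaving out each library in turn gave 80 to 636 genes for the interaction (26 to 102 higher, 51 to 534 lower) and 211 to 603 for the gap at day 0. Both upper values are without wild-type replicate 2 at day 0, and the causes of these changes were not tested. Without it, 116 of the 127 genes were still called, and without replicate 1 of that day, 81. The other comparisons ranged from 1439 to 1822 (wild-type response), 913 to 981 (*Usb1* knockout response), 255 to 314 (day 1), 118 to 141 (day 3) and 1124 to 1240 (weighted mean).

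The labels do not say that the replicate numbers pair the libraries, and the deviations from the group means do not settle it. Deviations correlated above 0.1 in 5 of 15 pairs with the same number and 4 of 30 with other numbers. The replicate block gave 113 genes (30 higher, 83 lower), of which 102 were among the 127.

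Voom on recovered reads gave 151 genes (93 shared) and a pseudocount of 0.1 gave 110 (84 shared). Over the genes named, the setting left the direction and the side of the threshold as they were in 1102 cases, with 114 calls lost, 6 gained and none reversed. With adjusted p alone after quantile normalization, 484 genes were higher and 379 lower. Fits without a wild-type library of day 0 assume that the remaining one varies like the other groups.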
